A study of Mus musculus with 18 samples.

Results

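The 9 genes Pdgfra, Pdgfrb, Ly6a, Dlk1, Cd34, Thy1, S100a4, Dpp4 and Pi16, used as markers of preadipocytes and fibroblasts, were followed through 18 libraries of a mouse brown fat cell line. They were taken by name from a table of 45706 genes, and all 9 were found in it, each as 1 gene. Of these, 6 had enough counts to be tested and 3 (Thy1, Dpp4 and Pi16) lay below the filter on low counts, which kept 14788 genes.

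The cells were BMC, immortalised mouse brown preadipocytes taken through differentiation and labelled as differentiated brown adipocytes. All groups share the line and were used on day 7, after a cocktail whose parts were dexamethasone (1 µM), isobutylmethylxanthine (0.5 mM), indomethacin (0.125 mM), triiodothyronine (1 nM) and insulin (20 nM). By label, 6 libraries were not induced (0 h), 6 were taken 4 h and 6 were taken 24 h after addition of 1 µM norepinephrine, the sympathetic transmitter that starts lipolysis and heat production in brown fat. The titles number the libraries of each group 1 to 6, all share 1 batch label, and the series asks how transcripts change with time after induction. The labels give no strain, genotype or clone, and nothing in them says that libraries of a group were separate cultures. The p-values therefore measure only how these libraries vary, which may be technical.

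Preadipocytes are fibroblast-like cells that can become fat cells. Their surface is marked by the platelet-derived growth factor (PDGF) receptors and by stem and progenitor antigens such as Ly6a (Sca-1) and Cd34, and Dlk1 (Pref-1) is a Notch-related inhibitor of adipogenesis that is lost as the cells differentiate. In mouse fat depots, cells with Dpp4 and Pi16 are known as interstitial progenitors upstream of committed preadipocytes. A culture of differentiated fat cells can still hold cells that did not differentiate, and RNA from a whole well cannot tell fewer cells of a type from less RNA in each.

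Expected counts per library ranged from 7010741 to 26501223. The library of 24 h replicate 5 stood apart, with the lowest total, 41.5% of its counts in the ribosomal RNA-like genes Yam1 and Gm26917 (6.78 to 10.6% in the other 17) and 4.30% in Lars2 (0.0133 to 0.0253% in the others). Some results that rest on it are also given without it. The others include it, among them all correlations and shares of variance, which use all 18 libraries. Over all genes tested, the median share of the variance of log2 CPM (read counts scaled to library size) that lay between labelled times was 3.78%, and between replicate numbers it was 72.0%. Libraries resembled each other in 3 sets of numbers across all labelled times, 3+6, 2+5 and 1+4. Whether the time labels are right was not tested and cannot be told from these data. The sets were put together from the likeness of these libraries, so differences in level between sets are given as descriptions with no test, and levels are tested between numbers. 1 fit, of labelled time by set, uses the sets as groups and has the same limit. What the numbers stand for is not given in the sources used here.

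The fat cell label was checked against its markers. All 10 mature adipocyte genes listed were measured, led by Lpl, Fabp4, Cd36 and Cfd, with a summed level of 8061 to 9666 CPM in 3+6, 9434 to 11540 CPM in 2+5 and 10160 to 10760 CPM in 1+4. Of 8 brown adipocyte genes 7 passed the filter. Among them Ucp1, the uncoupling protein that defines thermogenic fat, averaged 1.81 ± 0.53 CPM in 3+6, 10.5 ± 0.59 CPM in 2+5 and 15.8 ± 1.97 CPM in 1+4 (SD, n = 6 each), and it was picked out for its defining role after its values were seen. Other genes of the list had other orders. Adrb3 was at 93.3 ± 6.9, 26.7 ± 2.8 and 43.0 ± 1.5 CPM in that order. Ppargc1a was at 131 ± 6.7, 113 ± 5.7 and 132 ± 4.5 CPM, and Cidea at 15.2 ± 1.6, 13.9 ± 1.3 and 14.2 ± 1.1 CPM. Of these 7, 1 was called higher (19.0% of all genes) and 4 lower (19.4%) in both 3 over 1 and 6 over 4.

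Levels of the 9 markers spanned a wide range. On the scale of CPM per kilobase of exon, the mean level over the 18 libraries was 30.7 for S100a4, 16.1 for Pdgfrb, 9.87 for Pdgfra, 1.77 for Ly6a, 0.229 for Dlk1, 0.227 for Cd34, 0.0465 for Pi16, 0.0404 for Thy1 and 0.0015 for Dpp4. The steps from S100a4 to Pdgfrb, Pdgfra, Ly6a and Dlk1 held in 18 of 18 libraries each, as did Cd34 over Pi16. Neighbours that did not hold apart in all libraries were Dlk1 and Cd34, where Dlk1 was higher in 11 of 18, Pi16 and Thy1, where Pi16 was higher in 10 of 18, and Thy1 and Dpp4, where Thy1 was higher in 15 of 18 and lower in 1. Both PDGF receptors and S100a4 were thus well measured in these cells, while the progenitor antigens were at the lower end of what was tested.

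The promoters of S100a4 and Pdgfra are shown because these abundant markers had large differences between sets, and their windows differ in core sequence. Each runs from 250 bases before to 50 after the start of the gene in RefSeq (GRCm38.p6, plus strand, 5′ to 3′), and capitals mark TATAAA, the letters searched for as the TATA box. The windows are chr3:90603520-90603819 for S100a4 and chr5:75152001-75152300 for Pdgfra.
S100a4: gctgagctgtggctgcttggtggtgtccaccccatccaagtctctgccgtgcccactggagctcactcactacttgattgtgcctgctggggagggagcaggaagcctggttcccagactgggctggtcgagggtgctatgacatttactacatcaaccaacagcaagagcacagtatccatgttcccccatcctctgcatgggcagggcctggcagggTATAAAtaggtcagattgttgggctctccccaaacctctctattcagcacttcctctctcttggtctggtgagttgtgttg
Pdgfra: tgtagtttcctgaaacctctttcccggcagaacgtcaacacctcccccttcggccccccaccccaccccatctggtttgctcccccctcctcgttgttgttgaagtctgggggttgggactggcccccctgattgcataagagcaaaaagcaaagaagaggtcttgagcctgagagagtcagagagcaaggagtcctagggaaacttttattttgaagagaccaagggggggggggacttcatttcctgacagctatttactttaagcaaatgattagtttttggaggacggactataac
Of the 9 markers 6 had a promoter in the RefSeq table. 6 motifs were searched on both strands in these and in all 32851 promoters of the table, which have the same length. TATAAA stood in 13.6% of them, CCAAT in 37.4% and the GC box letters GGGCGG in 35.7%. The AP-1 motif TGANTCA stood in 7.81%, the cyclic AMP response element TGACGTCA in 1.79% and the TEAD motif GGAATG in 14.7%. The S100a4 promoter held TATAAA 31 bases before the start, at position -31. Dpp4 held TATAAA at -227 and the reverse complement of GGAATG at -118, and Pi16 held CCAAT at -64. The Pi16 window (chr17:29318632-29318931) lies inside the gene span given below, as RefSeq and GENCODE place the start of the gene differently. The windows of Pdgfra, Dlk1 and Cd34 held none of the 6 motifs.

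The means of S100a4 and both PDGF receptors had the same order of sets at every labelled time. S100a4, a calcium-binding protein used as a fibroblast marker, lies on chromosome 3 (mm10, 90603771 to 90606045, plus strand). Its lowest, median and highest levels were 18.8, 26.8 and 34.9 CPM in 3+6, 15.1, 16.6 and 20.1 CPM in 2+5 and 8.40, 10.2 and 10.9 CPM in 1+4. The 6 libraries of 2+5 all lay above those of 1+4, and 3+6 overlapped 2+5 at its lower end. Means were 26.4 ± 5.78 CPM in 3+6, 17.4 ± 2.10 CPM in 2+5 and 10.0 ± 0.99 CPM in 1+4 (SD, n = 6 each), and the log2 difference was 1.36 (SE 0.09) for 3+6 over 1+4.

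Pdgfra, the PDGF receptor of adipocyte progenitors and fibroblasts (chromosome 5, 75152292 to 75198215, plus strand), had 123, 141 and 167 CPM as lowest, median and highest in 3+6. In 2+5 these were 79.4, 88.9 and 125 CPM, and in 1+4 they were 56.8, 61.7 and 66.3 CPM. Every library of 3+6 and of 2+5 lay above every one of 1+4. The highest value of 2+5 is that of 24 h replicate 5, and the other 5 reached 93.2 CPM, below all of 3+6. Its sister receptor Pdgfrb, which also marks mural cells (chromosome 18, 61045150 to 61085061, plus strand), had 102, 109 and 139.8 CPM in 3+6, 78.8, 81.4 and 109 CPM in 2+5 and 60.7, 65.1 and 70.9 CPM in 1+4. It had the same order with smaller steps: its log2 difference for 3+6 over 1+4 was 0.79 (SE 0.07), against 1.21 (SE 0.08) for Pdgfra.

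**Figure D1:**
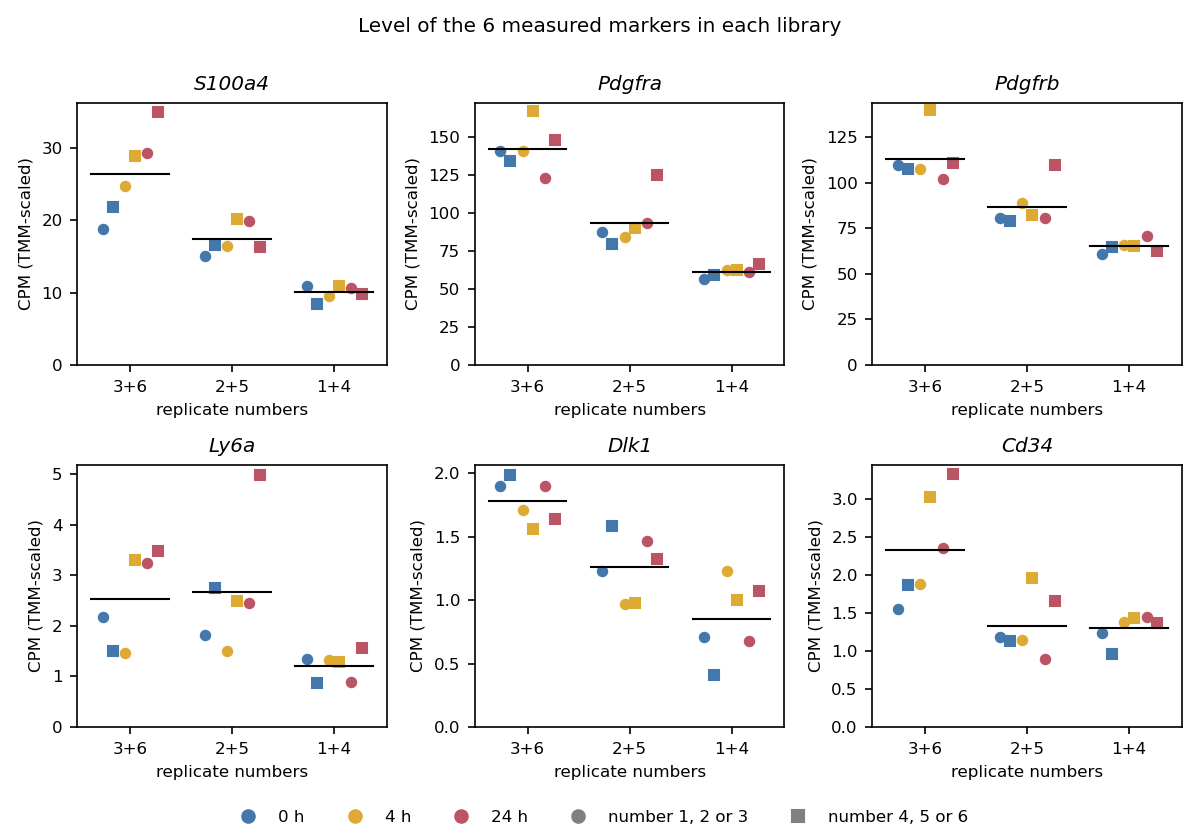
Level of each of the 6 tested markers in CPM (vertical axis, linear, from 0) in each of 18 libraries, by set of replicate numbers (horizontal axis); colour gives the labelled time, the marker shape the number within a set, and the line the mean of 6. Pdgfra, Pdgfrb and S100a4 step down from 3+6 to 2+5 to 1+4, with Pdgfra at 142, 93.2 and 61.3 CPM on average.

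The progenitor antigens were lower and more scattered. Dlk1 (chromosome 12, 109452823 to 109463336, plus strand) had 1.56, 1.81 and 1.99 CPM as lowest, median and highest in 3+6, 0.971, 1.28 and 1.58 CPM in 2+5 and 0.409, 0.855 and 1.23 CPM in 1+4. All 6 libraries of 3+6 lay above those of 1+4, and 2+5 overlapped both of these sets, although these values rest on 4 to 51 counts a library. Ly6a, the Sca-1 antigen of stem and stromal cells (chromosome 15, 74994877 to 74998031, minus strand), had 1.46, 2.71 and 3.48 CPM in 3+6, 1.5, 2.47 and 4.97 CPM in 2+5 and 0.863, 1.31 and 1.56 CPM in 1+4. The log2 difference of 3+6 over 2+5 was -0.02 (SE 0.21), and 1+4 had the lowest median, with overlap in each case. The highest value of Ly6a is again that of 24 h replicate 5, from 15 counts.

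Cd34, a sialomucin of progenitor and endothelial cells (chromosome 1, 194938819 to 194961279, plus strand), followed another order. It had 1.55, 2.12 and 3.32 CPM in 3+6, 0.889, 1.16 and 1.95 CPM in 2+5 and 0.954, 1.37 and 1.44 CPM in 1+4. All of 3+6 lay above 1+4, while 2+5 and 1+4 overlapped and differed by a log2 value of -0.01 (SE 0.21). Groups without overlap were found for 5 markers between 3+6 and 1+4 (all of 3+6 above in 19.1% of genes tested), for 3 between 2+5 and 1+4 (17.4% of genes above), and for 0 between 3+6 and 2+5 (14.2% above). Without 24 h replicate 5, the last count was 2, Pdgfra and Pdgfrb, beside 2657 of 14788 genes.

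The test over the 6 replicate numbers, with labelled time in the model, called all 6 tested markers. By edgeR's quasi-likelihood test the adjusted p was 2.24e-09 for S100a4, 1.33e-06 for Pdgfra, 1.24e-05 for Pdgfrb, 2.06e-04 for Cd34, 7.87e-04 for Ly6a and 0.00293 for Dlk1. That same test called 72.5% of all genes, so a call by it is common. The 3 sets accounted for 91.6% of the variance of log2 CPM of Pdgfra, 88.1% of S100a4, 85.4% of Pdgfrb, 65.6% of Dlk1, 56.2% of Cd34 and 50.7% of Ly6a, against a median of 62.7% over all genes. Pdgfra, Pdgfrb, S100a4 and, by less, Dlk1 were thus above that median and Cd34 and Ly6a below it.

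Pairs of numbers were tested next. Since the sets were formed by likeness over the whole table, many calls between sets and few within them follow from how the sets were made, and the values are given for the single markers. Number 6 over 4 called all 6 markers as higher (23.9% of genes higher), and number 3 over 1 called 5, all but Cd34 (24.8%). S100a4 had the largest log2 fold changes, 1.52 (SE 0.12, adjusted p = 5.12e-09) for 6 over 4 and 1.20 (SE 0.11, adjusted p = 5.29e-08) for 3 over 1. Both pairs called 5 markers higher, beside 19.0% of all genes, and 0 markers lower, beside 19.4%.

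Number 5 over 4 called 4 markers (Pdgfra, Pdgfrb, Ly6a and S100a4; 23.0% of genes higher) and number 2 over 1 called 3 (Pdgfra, Pdgfrb and S100a4; 23.5%). Ly6a had the largest change of these for 5 over 4, 1.37 (SE 0.31, adjusted p = 9.18e-04), and 1.28 (adjusted p = 0.00339) without 24 h replicate 5. For 2 over 1 its log2 fold change was 0.66 (SE 0.30, adjusted p = 0.0727), a value that passed without 0 h replicate 1 (0.0300), 0 h replicate 6 (0.0427) or 4 h replicate 3 (0.0485). Dlk1 was not called in either pair, and passed without 4 h replicate 1 in 2 over 1 (adjusted p = 0.0434) and without 4 h replicate 5 in 5 over 4 (0.0445). Both pairs called 3 markers higher, beside 19.2% of genes, and 0 lower, beside 19.3%.

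Number 6 over 5 called 4 markers (20.7% of genes higher), as did number 3 over 2 (23.8%), and both times these were Pdgfra, Pdgfrb, Cd34 and S100a4. The log2 fold change of Cd34 was 0.77 (SE 0.25, adjusted p = 0.0135) for 6 over 5 and 0.83 (SE 0.25, adjusted p = 0.00680) for 3 over 2. Both pairs called 16.4% of all genes higher and 17.8% lower, and 0 markers lower. Calls that 1 library decides are those of Cd34 in 3 over 2 (adjusted p = 0.114 without 24 h replicate 2) and in 6 over 5 (0.126 without 0 h replicate 5, 0.0704 without 24 h replicate 6), of Pdgfrb in 2 over 1 (0.0618 without 0 h replicate 1) and in 3 over 2 (0.0511 without 24 h replicate 2), of Ly6a in 3 over 1 (0.168 without 24 h replicate 1, 0.0792 without 24 h replicate 3) and of Dlk1 in 6 over 4 (0.0929 without 0 h replicate 4). With library totals in place of TMM scaling, calls were lost for Pdgfra and Pdgfrb in 2 over 1, 5 over 4 and 3 over 2 and for S100a4 in 3 over 2.

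Within sets, by edgeR's quasi-likelihood test, 0 of 6 markers were called for 6 over 3 and for 5 over 2, where 0.0% of genes were called, and 0 for 4 over 1, with 0.00676%. The largest of these log2 fold changes were 0.71 (SE 0.29, unadjusted p = 0.0243, adjusted p = 0.816) for Ly6a in 5 over 2 and 0.54 (SE 0.28, adjusted p = 0.819) for Cd34 in 5 over 2. Without adjustment, p was also under 0.05 for Cd34 (0.0320) and S100a4 (0.0398) in 6 over 3.

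**Figure D2:**
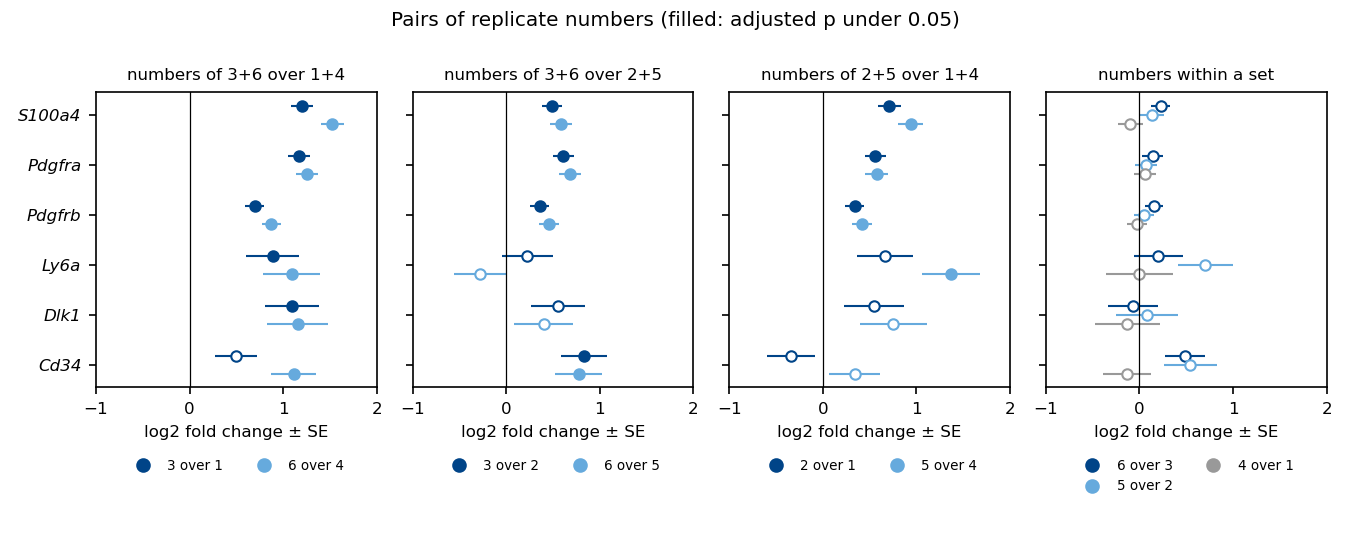
Log2 fold change (horizontal axis, bars ± SE) of the 6 tested markers between pairs of replicate numbers with 3 libraries each, the first number over the second; filled points passed an adjusted p of 0.05. All points for 3 over 1 and 6 over 4 are above 0, from 0.50 for Cd34 to 1.52 for S100a4, and no point within a set is filled.

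As a description, the 6 tested markers had a median log2 difference of 1.06 for 3+6 over 1+4, where the median of all genes was 0.00. Each lay between the percentiles 93.8 and 98.5 of all genes tested, Pdgfrb lowest and S100a4 highest. For 3+6 over 2+5 the median was 0.51, and for 2+5 over 1+4 it was 0.60. The median of all genes was 0.00 in both.

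Labelled time gave no call. Over the 6 libraries of each time, S100a4 averaged 15.3 ± 4.97 CPM at 0 h, 18.4 ± 7.64 CPM at 4 h and 20.1 ± 10.2 CPM at 24 h. Pdgfra averaged 92.9 ± 36.5, 101 ± 43.1 and 103 ± 34.9 CPM, and Pdgfrb 83.7 ± 20.9, 91.6 ± 28.4 and 89.3 ± 20.7 CPM in the same order. The spread within a time covered all sets, so the ranges of the 3 times overlapped for all 6 markers. Genes without overlap were also few over the table: 4 h lay above 0 h in 0.0203% and below it in 0.0473%, 24 h lay above 0 h in 0.0406% and below it in 0.0%, and 24 h lay above or below 4 h in 0.0% each. In each of the comparisons 4 h over 0 h, 24 h over 0 h and 24 h over 4 h, edgeR's quasi-likelihood test called 0 markers and 0.0% of genes, as did DESeq2 and limma-voom. At an unadjusted p under 0.05, edgeR had 173, 158 and 137 genes in that order, DESeq2 190, 160 and 121, and limma-voom 224, 154 and 135. None of the 6 markers was among the edgeR genes of this fit, which holds time alone. A blocked edgeR fit, with replicate number beside time, had 1461, 1155 and 757 such genes in that order. By its quasi-likelihood test, unadjusted p was 0.00817 for S100a4 and 0.0207 for Cd34 in 4 h over 0 h. For 24 h over 0 h it was 1.21e-04 for S100a4, 0.00961 for Ly6a and 0.0161 for Cd34. For 24 h over 4 h, Ly6a had 0.0333. No marker was called after adjustment in that fit.

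The largest log2 fold changes of labelled time were in Ly6a, Cd34 and S100a4. For 24 h over 0 h they were 0.58 (SE 0.36) for Ly6a, 0.51 (SE 0.29) for Cd34 and 0.42 (SE 0.33) for S100a4, each with an adjusted p of 1.00. The unadjusted p-values were 0.122, 0.102 and 0.225 in that order. For 4 h over 0 h, Cd34 had 0.43 (SE 0.29, adjusted p = 1.00) and S100a4 0.26 (SE 0.33, adjusted p = 1.00). Pdgfra, Pdgfrb and Dlk1 stayed between -0.07 and 0.14 in the comparisons with 0 h. Without 24 h replicate 5, the log2 fold changes for 24 h over 0 h were 0.44 for Ly6a, 0.52 for Cd34 and 0.46 for S100a4.

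With the replicate number as a block, S100a4 came nearest to a call. Its log2 fold change for 24 h over 0 h was then 0.41 (SE 0.08, adjusted p = 0.111), in a comparison that called 1 gene, 0.00676% of those tested. With the block 0.0% of genes were called for 4 h over 0 h and for 24 h over 4 h. Other fits with the same block called S100a4, with an adjusted p of 0.0316 by DESeq2, 0.0449 by limma-voom and 0.0454 by limma-voom with library weights. Leaving out single libraries from the blocked edgeR fit moved that p between 0.00222 and 0.391 (0.0884 without 24 h replicate 5), with a call without 0 h replicate 1 (0.00222) or 24 h replicate 1 (0.0455). Ly6a and Cd34 had a log2 fold change of 0.57 (SE 0.20, adjusted p = 0.422) and 0.45 (SE 0.17, adjusted p = 0.500) with the block.

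By number, S100a4 differed most between 24 h and 0 h in numbers 6 and 3. In number 3 it had 18.8 CPM at 0 h, 24.7 CPM at 4 h and 29.3 CPM at 24 h, and in number 6 it had 21.8, 28.9 and 34.9 CPM in that order. In number 1 it had 10.9, 9.53 and 10.6 CPM, and in number 4 it had 8.40, 10.9 and 9.74 CPM. Levels followed the labelled times in both numbers of 3+6 and in number 2 (15.1, 16.5 and 19.9 CPM) but in none of the others. The test of whether time differences differ between sets gave S100a4 an unadjusted p of 0.0913 and an adjusted p of 1.00 by edgeR's quasi-likelihood test, and called 0.0% of genes. The sets it uses came from these same libraries. At an unadjusted p under 0.05 it had 415 genes, and DESeq2 called 1 gene.

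**Figure D3:**
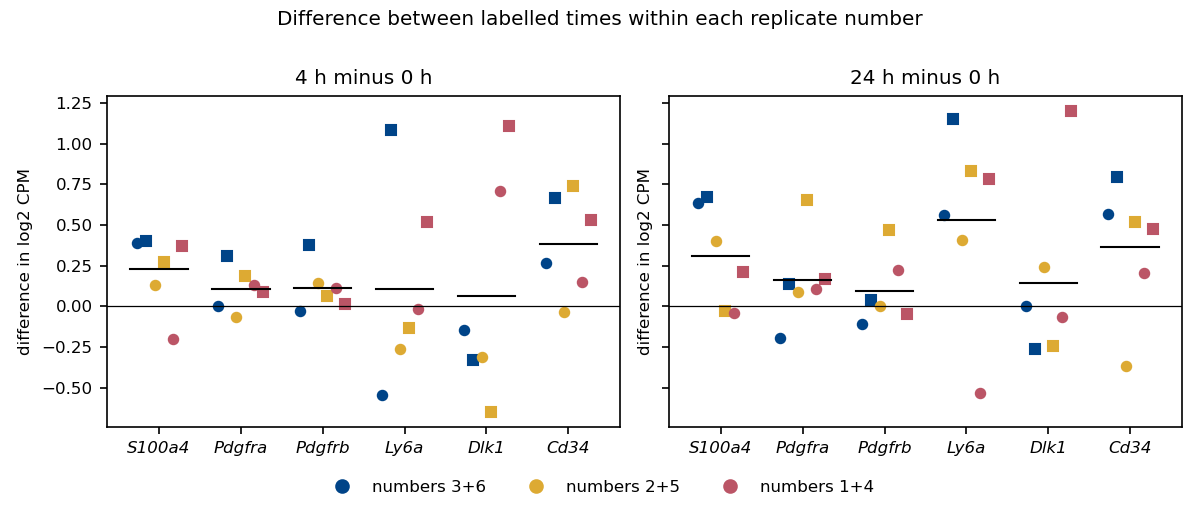
Difference in log2 CPM (vertical axis) of the 6 tested markers between labelled times within each replicate number, 4 h minus 0 h on the left and 24 h minus 0 h on the right; colours give the set, squares the numbers 4, 5 and 6, and lines the mean of 6 numbers. S100a4 is above 0 in 4 of 6 numbers for 24 h minus 0 h, highest at 0.67 in number 6 and 0.63 in number 3.

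Among the other markers, differences between labelled times varied from number to number. Ly6a at 24 h was above 0 h in 5 of 6 numbers, by a mean of 0.53 ± 0.58 in log2 CPM (SD over 6 numbers), and by 1.15 in number 6. Cd34 was above 0 h in 5 of 6 numbers at 4 h and in 5 of 6 at 24 h. Dlk1 at 4 h was above 0 h in both numbers of 1+4, by 0.71 in number 1 and 1.11 in number 4, and below it in the other 4 numbers. The unadjusted p for Dlk1 in the test of time by set was 0.0478, with an adjusted p of 1.00 by edgeR's quasi-likelihood test.

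Thy1, Dpp4 and Pi16 were close to the floor of detection. Thy1, a surface glycoprotein of fibroblasts and mesenchymal cells (chromosome 9, 44043384 to 44048579, plus strand), had 34 counts in all, in 15 of 18 libraries and never above 6. Its counts were 1 to 6 a library in 3+6, 0 to 3 in 2+5 and 0 to 3 in 1+4, so the sets overlapped. Dpp4, a membrane dipeptidyl peptidase (chromosome 2, 62330073 to 62412231, minus strand), had 4 counts in all, 2 in 0 h replicate 6 and 1 each in 0 h replicates 2 and 5. It was not detected in the other 15 libraries, where a count of 0 allows up to 3 counts, or 0.112 to 0.994 CPM by library, the highest in 24 h replicate 5. These limits cover counting error only.

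Pi16, a secreted peptidase inhibitor of fibroblasts (chromosome 17, 29317680 to 29330593, plus strand), had 101 counts, in 17 of 18 libraries. It ran the other way from the tested markers. Its counts summed to 21 in 3+6 (0 to 11 a library), 20 in 2+5 (1 to 6) and 60 in 1+4 (6 to 17), and its levels averaged 0.153 ± 0.16, 0.227 ± 0.10 and 0.508 ± 0.18 CPM in the same order (SD, n = 6 each). In a fit with no filter on low counts, Pi16 passed edgeR's quasi-likelihood test over the 6 numbers (adjusted p = 0.00523), as did 41.5% of the 26331 genes of that fit. In that fit number 6 over 4 gave a log2 fold change of -2.28 (SE 0.65, adjusted p = 0.00380; 13.3% of genes were called lower) and number 3 over 1 gave -1.21 (SE 0.55, adjusted p = 0.0961; 13.6% lower). Thy1 and Dpp4 had adjusted p-values of 0.584 and 0.922 over the numbers.

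**Figure D4:**
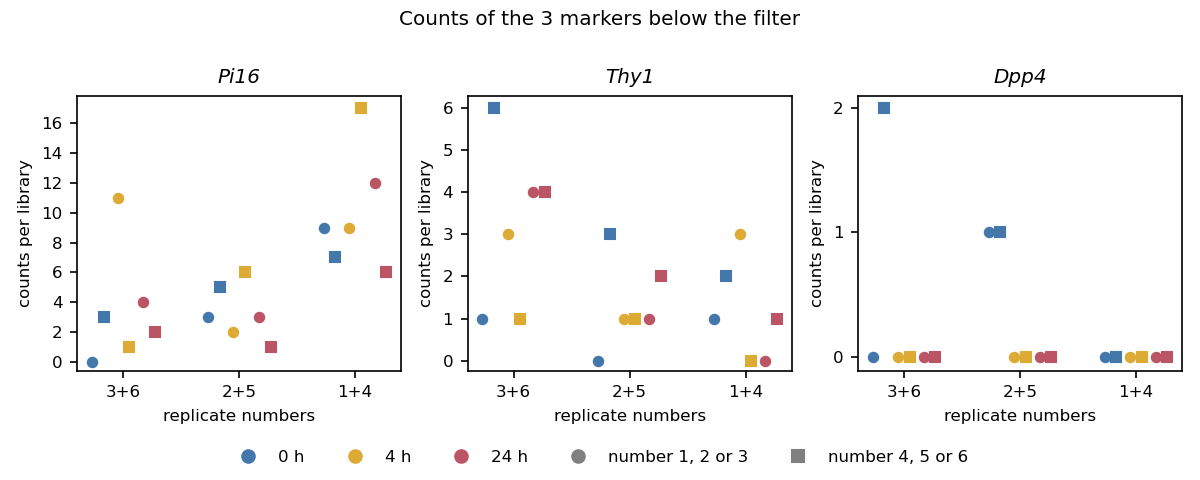
Counts per library (vertical axis, not scaled for depth) of the 3 markers below the filter, by set of replicate numbers, with colour for labelled time and shape for the number within a set. Pi16 reaches 17 counts in 1+4, Thy1 at most 6 and Dpp4 at most 2.

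The markers varied together to different degrees. Over the 18 libraries, which share sets and labelled times, log2 CPM of Pdgfra and Pdgfrb had a Pearson r of 0.975, and Pdgfra and S100a4 had 0.901. After each set's mean was taken off, the first pair had an r of 0.821 and the second 0.078. Both receptors had an outlying value in 24 h replicate 5 within 2+5 (125 and 109 CPM), and r without that library was not computed. Cd34 and S100a4 had an r of 0.722, and 0.655 after taking off set means, so these differed in which part of the variation they shared. Dlk1 had an r between -0.162 and 0.330 with the other 5 markers after set means were taken off.

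The genes most like each marker over the 18 libraries, by Pearson r, differed from marker to marker, with Thbs2 and Fstl1 shared by the receptors. Pdgfra was most like Myof (0.991), Fstl1 (0.990) and Thbs2 (0.990), and Pdgfrb most like Thbs2 (0.981), the protocadherin Fat4 (0.979) and Fstl1 (0.977). S100a4 was most like Nop14 (0.967), its family member S100a6 (0.966) and Eef1d (0.959). Cd34 was most like Cep170b (0.912), Pelp1 (0.908) and Lmna (0.896), Ly6a most like Zfp362 (0.904), Irf7 (0.886) and Zc3h15 (0.880), and Dlk1 most like Smim5 (0.865), Snhg12 (0.860) and Eef1b2 (0.853). These are descriptions over libraries that fall into sets.

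The gene lists are read against all genes tested, of which 19.0% were called higher and 19.4% lower in both 3 over 1 and 6 over 4. Of 9 tested genes around the PDGF receptors (ligands, adaptors and Plat), 1 was called higher and 2 lower in both pairs, counts near those shares, with a median log2 difference of -0.03 for 3+6 over 1+4. The 1 called higher was Plat, the tissue plasminogen activator that cleaves the ligand PDGF-CC, picked out after its values were seen, at 24.3 ± 1.76 CPM in 3+6, 20.7 ± 4.40 CPM in 2+5 and 11.8 ± 0.99 CPM in 1+4. Its means had the same order of sets as those of the receptors. The adaptor Grb2 was level, at 44.6 ± 2.40 CPM in 3+6, 44.6 ± 2.03 CPM in 2+5 and 46.2 ± 1.15 CPM in 1+4. Pik3r1, the regulatory subunit of PI3 kinase, was at 236 ± 6.26, 161 ± 4.08 and 254 ± 14.4 CPM in that order, lowest in 2+5. The phosphatase Ptpn11 and the adaptor Shc1 differed by a log2 value of 0.11 and -0.16 for 3+6 over 1+4.

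Of 7 tested genes of the Notch pathway and the Dlk1 locus, 2 were called higher and 2 lower in both pairs, where 19.0% and 19.4% of all genes were. Notch2, the most abundant receptor of the list, differed by -0.04, while Adam17, a sheddase that cleaves DLK1, was called lower in both (-0.43). Notch1 was called higher in both (0.22), and so was Sox9 (1.55), a transcription factor of progenitor cells, while the Notch target Hes1 was called lower in both (-0.58). Notch3, also a mural cell gene, was at 58.7 ± 4.33 CPM in 3+6, 27.04 ± 3.74 CPM in 2+5 and 49.7 ± 4.68 CPM in 1+4.

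Most general fibroblast genes were called higher between numbers of 3+6 and of 1+4, and fewer between 3+6 and 2+5. Of 10 tested, 8 were called higher and 0 lower in both 3 over 1 and 6 over 4, with a median log2 difference of 0.80, beside 19.0% of all genes called higher. Fibronectin (Fn1) was at 1504 ± 111 CPM in 3+6, 1385 ± 123 CPM in 2+5 and 838 ± 52.1 CPM in 1+4, and the collagen Col1a1 at 869 ± 86.2, 551 ± 104 and 434 ± 34.3 CPM in that order. Col3a1 (0.70) was also called higher in both pairs. In 3 over 2 and 6 over 5, 5 of the 10 were called higher in both (16.4% of all genes) and 2 lower (17.8%), and these 2 were Vim and Twist2. Vim, an intermediate filament gene, was at 379 ± 30.1 CPM in 3+6, 453 ± 38.6 CPM in 2+5 and 323 ± 9.3 CPM in 1+4. The fibroblast list shares no gene with the 9 markers. Some lists share a gene with each other: Fap, Notch3, Ly6c1, Cd36 and Tek each stand in more than 1. The list members named are among the 4 most abundant of their list, except Plat, Twist2, Sox9, Hes1, Ucp1, Rgs5, Cdh5, Adgre1 and Spi1, which were picked out after their values were seen.

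Genes of fat stromal subtypes gave mixed counts. Of 6 tested interstitial progenitor genes, 5 were called higher (19.0% of all genes) and 0 lower (19.4%) in both 3 over 1 and 6 over 4, with a median log2 difference of 1.15. In both 3 over 2 and 6 over 5, 2 were called higher (16.4% of all genes) and 3 lower (17.8%), with a median of -0.36 for 3+6 over 2+5. Anxa3, an annexin, was at 40.6 ± 5.42 CPM in 3+6, 25.9 ± 4.99 CPM in 2+5 and 16 ± 2.49 CPM in 1+4, and Ly6c1, a relative of Ly6a, at 2.05 ± 0.78, 3.88 ± 0.85 and 0.581 ± 0.12 CPM. Of the markers that name the same cells, Dpp4 had 4 counts, and Pi16 was lower in number 6 than in number 4, as given above. Of 9 committed preadipocyte genes, 1 was called higher (19.0% of all genes) and 2 lower (19.4%) in both 3 over 1 and 6 over 4. Their median was -0.02 for 3+6 over 1+4, and Pparg, the master regulator of adipogenesis, differed by -0.02. Of 6 regulatory stromal genes, 3 were called higher and 1 lower in these same pairs, with F3 (CD142) at 0.62 and Igfbp3 at -0.73.

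The gene families of the markers had few members tested, to be read against the 19.0% of all genes higher and 19.4% lower. Of 8 tested S100 genes other than S100a4, 2 were called higher and 1 lower in both pairs, with a median of 0.02. S100a6 was at 209 ± 25.8 CPM in 3+6, 142 ± 18.1 CPM in 2+5 and 84.4 ± 2.29 CPM in 1+4, an order like that of S100a4, while S100a10 differed by 0.03. Of 3 tested Ly6 genes, 1 was called higher and 1 lower in both pairs, and Ly6e, the most abundant, differed by 0.12. Of 5 tested dipeptidyl peptidases, 2 were called higher and 0 lower, with a median of 0.19, and Dpp8 was at 80.9 ± 1.41 CPM in 3+6, 85.9 ± 3.24 CPM in 2+5 and 76.2 ± 1.55 CPM in 1+4.

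Markers of other cell types moved beside these results, and their part in them was not tested. Of 10 mature adipocyte genes, 3 were called higher (19.0% of all genes) and 6 lower (19.4%) in both 3 over 1 and 6 over 4. Their median log2 difference was -0.42, and among them Cfd had 1.39 and Lpl -0.53. The same shares of all genes apply to the other lists here. Of 7 brown adipocyte genes, 1 was higher (Adrb3, 1.12) and 4 lower, with a median of -0.59. Of 6 mural cell genes, 1 was higher (Acta2, 1.41) and 0 lower, with a summed level of 174 to 204 CPM in 3+6, 125 to 159.5 CPM in 2+5 and 133 to 148 CPM in 1+4, and with Rgs5, a defining pericyte gene, below the filter.

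Endothelial and leukocyte markers were near 0, while some haematopoietic progenitor genes were not. All 8 endothelial genes were below the filter, with a summed level of 0.970 to 1.84 CPM in 3+6, 0.663 to 1.76 CPM in 2+5 and 0.772 to 1.16 CPM in 1+4, and Cdh5 had no count in any library. Of 8 leukocyte genes only Cd68 passed, with a summed level of 2.90 to 3.89, 2.98 to 4.24 and 3.04 to 3.42 CPM in the same order, and Adgre1 had no count. Of 6 haematopoietic progenitor genes 3 passed (Runx1, Kit and Gata2), all called higher in both 3 over 1 and 6 over 4 (19.0% of all genes). Their median log2 difference was 1.28 for 3+6 over 1+4. Runx1 was at 22.0 ± 3.19 CPM in 3+6, 36.5 ± 2.73 CPM in 2+5 and 15.98 ± 1.37 CPM in 1+4. The list had a summed level of 24.5 to 33.1 CPM in 3+6, 36.6 to 47.4 CPM in 2+5 and 16.2 to 19.3 CPM in 1+4, while Spi1 had 4 counts in all. Of 6 mesothelial genes 1 passed, Lrrn4, called higher in both pairs (1.56), with a summed level of 3.64 to 5.74, 2.98 to 5.29 and 1.33 to 2.18 CPM in that order. Labelled time called 0 genes of any of these lists.

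**Figure D5:**
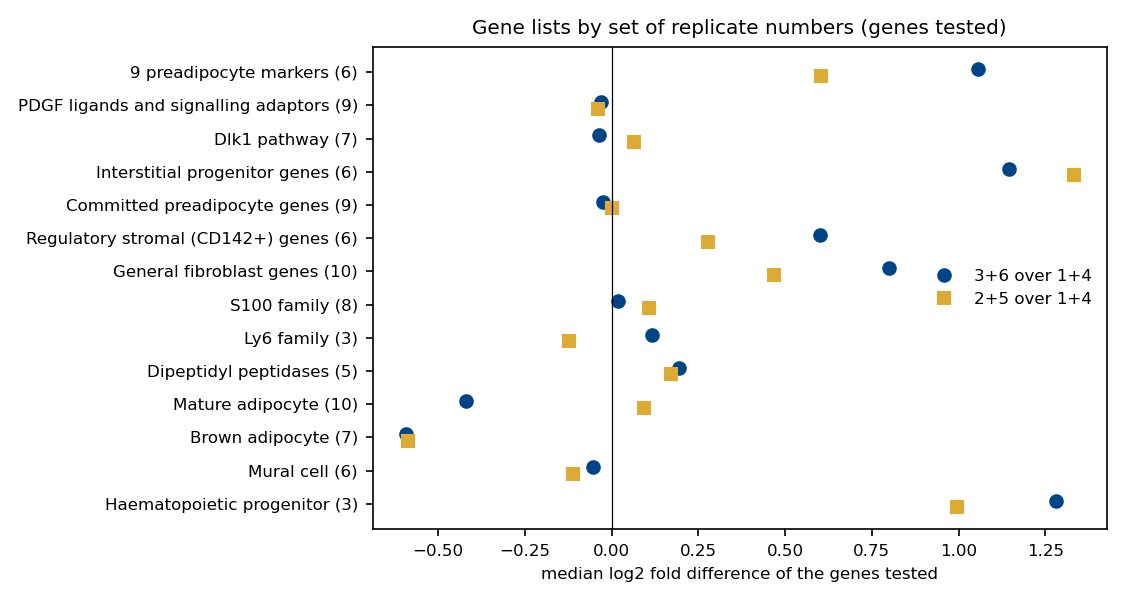
Median log2 difference (horizontal axis) of the tested genes of each list drawn and of the 9 markers between sets of replicate numbers, circles for 3+6 over 1+4 and squares for 2+5 over 1+4, with the number of genes tested in brackets. The endothelial, leukocyte and mesothelial lists, with 0, 1 and 1 genes tested, are not drawn. The 1 mesothelial gene had 1.56 for 3+6 over 1+4. For 3+6 over 1+4, haematopoietic progenitor (1.28) and interstitial progenitor genes (1.15) and the markers (1.06) lie furthest to the right. General fibroblast (0.80) and regulatory stromal genes (0.60) follow, and the mature (-0.42) and brown adipocyte genes (-0.59) lie furthest to the left.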

How the data were processed

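RNA-seq libraries of 18 samples were deposited as 1 table of expected counts by salmon, per the file headers and labels, with 45706 genes, of which 26427 had a count in some library. Of values above 0, 27.39% were not whole (tolerance 1e-06), and they were rounded to whole numbers first. Per the submitters' processing notes, mm10 was the build and limma and edgeR were used. No source used here gives the salmon version, the annotation or how strand was set, so reads of overlapping genes on opposite strands may not be told apart. Gene positions come from GENCODE M21, which holds 45143 of the IDs.

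The filterByExpr function (minimum count 10, minimum total 15) left 14788 genes with at least 99.91% of each library's counts. Counts were scaled by TMM (trimmed mean of M-values) and tested with edgeR 4.0.16 (R 4.3.3) by robust quasi-likelihood F-tests over all 18 libraries, with Benjamini-Hochberg adjustment over all genes and a threshold of 0.05. Every adjusted p in the text is from edgeR unless DESeq2 (1.42.0) or limma-voom (3.58.1) is named. Models held time alone, replicate number and time, or time, number set and their interaction. Levels are CPM with TMM-scaled library sizes, and log2 CPM used a prior count of 2. A fold change of a gene with few counts depends on such priors. The fits were tested on simulated counts first.

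Libraries that share a number deviated together across times, with correlations of 0.2975 to 0.7184 in 18 pairs after group means were taken off, all above 0.1. Libraries whose numbers lie 3 apart did so almost as much, at 0.237 to 0.6879 (median 0.5694, against 0.5904 for a shared number). The likeness therefore does not tell pairing by number from likeness within a set. The numbers, which come from the titles, were used to pair the libraries, although no label ties a number to a culture or day. Within a labelled time, no 2 libraries agreed within sampling noise. Libraries of different labelled times were not compared in this way. All columns were mapped to samples.

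The 9 markers and the gene lists were chosen with earlier results of these data known. Named were all 9 markers, up to 4 most abundant genes of each list and the 3 genes most like each tested marker, with predicted genes left out. Alternatives were other scalings, filters and tools, the replicate block, library weights, single sets or times, and leaving out each library. Chosen after seeing the data were DESeq2 and limma-voom with the block, the blocked fits without single libraries, and the overlap counts without 24 h replicate 5.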

Additional observations from a re-analysis of the deposited data

Results flagged for a closer look

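In groups of 6 libraries, ratios were taken on log2 CPM. A library was picked out where its gap to the nearest other, divided by the range of the group, passed Dixon's 95% critical value. Such a library was found in 5 of 54 groups. Chance alone gives about 1 in 20.

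Pdgfra in 2+5 had a ratio of 0.646, with 125 CPM in 24 h replicate 5 beside 79.4 to 93.2 CPM in the other 5 libraries. Pdgfrb in the same set had a ratio of 0.629, with 109 CPM in 24 h replicate 5 beside 78.8 to 89.0 CPM. That library is the shallowest and the one with the high share of ribosomal RNA-like counts, and the part of either in these values was not tested. Pdgfrb in 3+6 had a ratio of 0.74, with 139.8 CPM in 4 h replicate 6 beside 102 to 111 CPM in the others. Cd34 in 1+4 had a ratio of 0.627, with 0.954 CPM (21 counts) in 0 h replicate 4 beside 1.24 to 1.44 CPM. Dpp4 in 3+6 had a ratio of 1.0, from 2 counts in 0 h replicate 6 and 0 in each of the others.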

How the results depend on the processing

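S100a4, Pdgfra and Pdgfrb kept the order 3+6 over 2+5 over 1+4 in their log2 differences under each scaling, filter, tool, single time and left-out library tried for the sets. Of 3037 alternative values computed, 2876 kept direction and call, or moved by less than the spread. Those that did not include turned signs of small values, lost or gained calls, and moved counts or set differences. Values below are log2 fold changes unless counts are named, and where a value changed the cause was not tested. Depth limits Dlk1, Ly6a and Cd34, and more so Thy1, Dpp4 and Pi16.

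With the replicate block, which pairs libraries by number, 24 h over 0 h called 1 gene (1 also without 24 h replicate 5), and with the block DESeq2 called 63 genes and limma-voom 9 (9 with library weights). These last 3 fits called 1 marker, S100a4, which the blocked edgeR fit did not. For 4 h over 0 h DESeq2 with the block called 14 genes. The block turned Dlk1 for 4 h over 0 h (-0.07 without it) to 0.016, to 0.018 without 24 h replicate 5 and to 0.075 in limma-voom with weights, and limma-voom alone gave 0.10. It turned Pdgfra for 24 h over 4 h to -0.052 without 24 h replicate 5, and limma-voom with the block gave -0.0042 (-0.016 with weights). The block changed no other call of a marker.

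Within single sets, 24 h over 0 h called 1 gene in 3+6, 1 in 2+5 and 12 in 1+4, 24 h over 4 h called 1 in 3+6 and 1 in 1+4, and 4 h over 0 h called 1 in 2+5. Signs that turned for 4 h over 0 h were those of Ly6a in 2+5 (-0.17) and Dlk1 in 1+4 (0.95). For 24 h over 0 h they were Pdgfra (-0.020), Pdgfrb (-0.032) and Dlk1 (-0.13) in 3+6 and Cd34 (-0.16) in 2+5. For 24 h over 4 h they were Pdgfra in 3+6 (-0.17), Pdgfrb (0.10) and Cd34 (-0.62) in 2+5, and Pdgfrb (0.040), Ly6a (-0.19) and Dlk1 (-0.44) in 1+4.

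Library totals without scaling shifted the median of all genes by -0.167 for 24 h over 0 h, -0.161 for 24 h over 4 h, -0.280 for 5 over 2, -0.208 for 5 over 4, 0.117 for 3 over 1, 0.221 for 6 over 4, 0.108 for 3 over 2, 0.419 for 6 over 5, 0.252 for 3+6 over 2+5 and 0.167 for 3+6 over 1+4. Under them the test over numbers called 4817 genes (10716 with TMM), and time by set called 8. Markers called fell to 1 for 2 over 1, where Pdgfra had 0.57 and Pdgfrb 0.34 (0.56 and 0.34 with TMM), to 2 for 5 over 4, where they had 0.32 and 0.18 (0.58 and 0.42 with TMM), and to 1 for 3 over 2, where they had 0.71 and 0.46 and S100a4 had 0.60 (0.61, 0.36 and 0.49 with TMM). Values for 24 h over 0 h were -0.051 for Pdgfra, -0.11 for Pdgfrb and -0.065 for Dlk1, and for 24 h over 4 h -0.17 for Pdgfra and -0.039 for Cd34. For 4 over 1 they were -0.0011 for Pdgfra and -0.062 for Ly6a (-0.0095 by DESeq2). For 5 over 2 they were -0.24 for Pdgfra, -0.26 for Pdgfrb, -0.11 for Dlk1 and -0.18 for S100a4, and for 6 over 5 Ly6a had 0.15. For 3+6 over 2+5 they were 0.92 for Pdgfra, 0.69 for Pdgfrb, 0.23 for Ly6a and 0.82 for S100a4, and for 3+6 over 1+4 1.38 for Pdgfra and 0.95 for Pdgfrb. Time by set called 302 genes with no filter on low counts and 1 by DESeq2.

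Within single labelled times, 3+6 over 2+5 at 24 h gave 0.32 for Pdgfra, 0.18 for Pdgfrb and 0.83 for S100a4, and at 4 h 0.18 for Ly6a. For 3+6 over 1+4, Pdgfra had 1.08 at 24 h, Dlk1 had 1.67 at 0 h and 0.52 at 4 h, and S100a4 had 1.07 at 0 h and 1.64 at 24 h. For 2+5 over 1+4, Pdgfra had 0.76 at 24 h, Ly6a 0.53 at 4 h and 1.48 at 24 h, Dlk1 1.22 at 0 h and -0.17 at 4 h, and Cd34 0.076 at 0 h and 0.088 at 4 h. Markers of 3+6 wholly above 2+5 were 2 without 24 h replicate 5, against 0 with it.

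Leaving out 1 library at a time, 4 h over 0 h called 0 to 1 genes, 24 h over 4 h 0 to 1, time by set 0 to 5, and 3 over 2 called 2 to 4 markers (2 without 24 h replicate 2). For 4 h over 0 h the ranges were -0.080 to 0.28 for Pdgfra, -0.030 to 0.22 for Pdgfrb, -0.12 to 0.27 for Ly6a and -0.25 to 0.091 for Dlk1. For 24 h over 0 h Dlk1 ranged from -0.12 to 0.23. For 24 h over 4 h the ranges were -0.11 to 0.22 for Pdgfra, -0.12 to 0.12 for Pdgfrb, -0.0090 to 0.30 for Dlk1, -0.21 to 0.26 for Cd34 and -0.080 to 0.32 for S100a4. For 4 over 1 they were -0.073 to 0.039 for Pdgfrb, -0.37 to 0.28 for Ly6a, -0.44 to 0.30 for Dlk1 and -0.19 to 0.10 for S100a4. For 5 over 2 they were -0.069 to 0.19 for Pdgfra, -0.059 to 0.14 for Pdgfrb and -0.31 to 0.35 for Dlk1, and for 6 over 3 -0.018 to 0.50 for Ly6a and -0.24 to 0.031 for Dlk1. Ly6a ranged from -0.52 to 0.047 for 6 over 5 and from -0.14 to 0.11 for 3+6 over 2+5, and Cd34 from -0.16 to 0.17 for 2+5 over 1+4.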
